A study of Mus musculus with 9 samples.

Results

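Homologous recombination and Fanconi repair genes are the genes of the machinery that repairs broken and crosslinked DNA by copying a sister strand. A list of 34 such genes was followed, and a gene was taken as measured where a probe set carried its symbol and no other. Under that rule 30 of the 34 were measured, among 22180 genes on the array; where a gene had several probe sets, the one with the highest mean was used. Fanca and Rad54b had only probe sets shared with other symbols, and Xrcc2 and Rbbp8 were not analysed here.

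The arrays came from wild-type CD1 mouse cortex in culture, in 3 groups of 3. The neuron cultures came from embryos of embryonic day 16 and were kept for 5 days in total. Another field of the labels gives fewer days in culture for the neurons, and the total was used here. In the co-cultures, precursors from embryonic day 13 were added to day 16 neurons and kept with them for 1 day, the neurons having 5 days in total. The precursor cultures came from embryonic day 13 and were kept for 1 day. No group carried an allele or agent beyond these culture conditions. The labels call the 3 arrays of a group biological replicates, without naming the embryos or litters behind each, so p-values measure the spread between these arrays. Neuron and precursor cultures were also of different embryonic days and kept for different times, and these cannot be told apart from the cell type. All levels are the deposited log2 values made by robust multi-array averaging (RMA), a normalisation that makes the arrays' distributions alike, and a level of 1 probe set cannot be set against that of another.

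In cells that copy their DNA, replication forks stall at crosslinks and breaks. The Fanconi core complex is an E3 ubiquitin ligase that recognises a crosslink and attaches ubiquitin to the pair FANCD2 and FANCI, after which nucleases open the lesion. Broken ends are cut back by the MRE11 complex, EXO1 and DNA2, and BRCA1, PALB2 and BRCA2 prepare the ends for pairing with the sister copy. Most of this machinery is used in S and G2 phase, and in the embryonic cortex those phases are passed through by precursors and not by neurons, which have left the cycle.

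The markers were read first as a check of the labels. Mki67, a protein of dividing cells, had 7.12, 7.60 and 7.22 in neuron arrays, 10.16, 10.20 and 10.13 in co-culture arrays, and 10.30, 10.24 and 10.28 in precursor arrays. Mapt, the neuronal tau protein, had 10.34, 10.31 and 10.32 in neuron arrays, 9.46, 9.50 and 9.46 in co-culture arrays, and 8.91, 8.88 and 8.93 in precursor arrays. RMA gives every probe set a value on every array, and no detection call was made. Whether neurons were present in the precursor cultures, or dividing cells in the neuron cultures, was not tested. Among the 8 neuron markers, 6 were called higher in neurons than in precursors and 2 were not called. Nefm lay below the array median in every array. The mean of the 8 measured proliferation markers was between 7.75 and 8.09 in neuron arrays, 10.2 and 10.3 in co-culture arrays, and 10.3 and 10.4 in precursor arrays, and all 8 were lower in neurons than in precursors. All 7 radial precursor markers were also lower in neurons, with list means between 8.71 and 8.92 there, against 10.1 in precursor arrays. Of 8 microglia and macrophage markers, Fcer1g at -1.01 and Tyrobp at -0.38 were lower in neurons than in precursors and Aif1 at 0.41 was higher; 1 lower call was left without neuron replicate 2, precursor replicate 1 or 3, or co-culture replicate 1 or 3. Against neurons, 3 of these markers were higher in co-cultures and 1 was lower, with 2 lower without neuron replicate 2 or co-culture replicate 3. Over all genes, 20.2% were called lower and 17.7% higher in neurons than in precursors. In co-cultures against neurons these shares were 20.3% higher and 16.7% lower. None of the 8 was called between co-cultures and precursors, where 3.53% of all genes were called higher and 0.18% lower. The list's mean was between 7.04 and 7.10 in co-culture arrays, 6.84 and 7.0 in neuron arrays, and 7.03 and 7.22 in precursor arrays. Of 5 astrocyte markers, 1 was lower and 1 higher in neurons than in precursors. Of 7 endothelial and mesenchymal markers 2 were lower and 0 higher, and of 6 oligodendrocyte lineage markers 0 were called. These 3 lists had 0 calls between co-cultures and precursors, and some of their counts moved when an array was left out. The part of the cultures' cell make-up in the results that follow was not tested. In such bulk RNA fewer cells of a type and less RNA per cell cannot be told apart.

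Promoter sequences are shown for 5 members, since the results turn on genes that were lower together and E2F factors are known to drive genes of the S phase. Of the 30 measured members, 26 matched the RefSeq promoter table of GRCm38.p6, which covers 250 bases before to 50 after each start for 27025 genes. The E2F motif was searched as TTTCCCGC, TTTCGCGC, TTTGCCGC and TTTGGCGC, and the cell cycle homology region (CHR) as TTTGAA and TTCGAA, on both strands. Brca1 is printed because it had the largest difference and holds neither motif; the other members printed are all those with an E2F match. Capitals mark the E2F and CHR matches, as read on the printed strand, 5′ to 3′; on it a match of the opposite strand appears as its reverse complement.
Brca1, chr11:101551906-101552205 (minus strand): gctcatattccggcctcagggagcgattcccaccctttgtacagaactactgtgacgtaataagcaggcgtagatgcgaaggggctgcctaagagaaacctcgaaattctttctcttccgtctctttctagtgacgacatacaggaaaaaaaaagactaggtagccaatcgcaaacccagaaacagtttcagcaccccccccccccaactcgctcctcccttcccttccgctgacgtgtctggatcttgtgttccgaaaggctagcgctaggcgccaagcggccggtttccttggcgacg
Topbp1, chr9:103305077-103305376 (plus strand): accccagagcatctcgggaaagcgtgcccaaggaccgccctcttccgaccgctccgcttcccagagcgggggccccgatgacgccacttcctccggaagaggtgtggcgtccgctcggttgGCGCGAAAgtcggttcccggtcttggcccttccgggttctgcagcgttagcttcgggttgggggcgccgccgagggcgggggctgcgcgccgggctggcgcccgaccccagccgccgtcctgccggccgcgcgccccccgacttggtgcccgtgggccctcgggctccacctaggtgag
Bard1, chr1:71102923-71103222 (minus strand): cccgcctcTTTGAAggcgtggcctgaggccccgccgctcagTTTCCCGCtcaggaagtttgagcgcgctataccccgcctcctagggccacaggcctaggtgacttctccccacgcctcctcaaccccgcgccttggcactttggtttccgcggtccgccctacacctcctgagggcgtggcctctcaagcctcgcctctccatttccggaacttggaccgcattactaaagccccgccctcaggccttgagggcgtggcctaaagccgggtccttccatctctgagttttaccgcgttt
Brca2, chr5:150522371-150522670 (plus strand): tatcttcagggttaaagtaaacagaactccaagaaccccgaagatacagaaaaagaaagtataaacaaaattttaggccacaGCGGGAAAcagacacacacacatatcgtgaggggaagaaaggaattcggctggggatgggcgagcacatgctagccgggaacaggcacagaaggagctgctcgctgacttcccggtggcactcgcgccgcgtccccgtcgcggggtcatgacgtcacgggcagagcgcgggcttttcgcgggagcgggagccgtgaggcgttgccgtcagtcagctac
Fancg, chr4:43010252-43010551 (minus strand): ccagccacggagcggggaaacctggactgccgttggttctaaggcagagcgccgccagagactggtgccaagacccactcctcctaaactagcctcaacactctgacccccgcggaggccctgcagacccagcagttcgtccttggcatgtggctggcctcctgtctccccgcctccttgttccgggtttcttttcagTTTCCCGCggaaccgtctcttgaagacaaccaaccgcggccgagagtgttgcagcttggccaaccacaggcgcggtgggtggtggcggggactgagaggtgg

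An E2F match stood in 4 of the 26 member promoters (15.4%), in Topbp1, Bard1, Brca2 and Fancg, against 704 promoters, or 2.60%, of the whole table. Among the measured genes of that table the share was 3.25%. The match stood in 3 of 21 members called lower in neurons (14.3%) and in 1 of 5 not called (20.0%). It lay 129 to 122 bases before the start in Topbp1 and 52 to 45 bases before it in Fancg. The E2F match of Bard1 lay 209 to 202 bases before the start and that of Brca2 168 to 161 bases before it. These starts are those of the promoter table, and the gene positions of the same build reach further upstream for 3 of the 4. Brca2 begins at 150522297 and Fancg, on the minus strand, at 43010567, so their printed windows lie inside the gene. Topbp1 begins at 103305167, and its match also lies inside the gene. Only the match of Bard1, which begins at 71103141 on the minus strand, lies outside it. A CHR match stood in 3 member promoters (11.5%), those of Bard1, Eme1 and Atr, against 21.7% of all promoters, and no E2F match overlapped a CHR match. The CCAAT box, searched as CCAAT on both strands, stood in 15 of 26 (57.7%), against 41.1% of all. The member promoters also held a median of 23 CG dinucleotides and 58.0% G and C, against 7 and 52.7% over the table, so the letters of the 2 sets differ in make-up. Of the 4 members with an E2F match, Topbp1, Bard1 and Brca2 were lower in neurons than in precursors and Fancg was not called; a match of letters describes a window and is not a bound site.

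The comparison of neurons with precursors asks how the repair genes differ between the neuron and the precursor cultures. A total of 25 of the 30 measured members were lower in neurons, 0 were higher and 5 did not pass (limma, Benjamini-Hochberg adjusted p below 0.05 over all 22180 genes). Over all genes 20.2% were called lower and 17.7% higher in this comparison. At least 2-fold lower were 12 members, against 2.85% of all genes. The median member differed by -0.78 on the log2 scale, and the median over all genes was 0.013. In each of the 25 called members every neuron array lay below every precursor array, a separation in that direction found in 23.6% of all genes. The plot of member levels by array shows these groups beside each other.

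**Figure D1:**
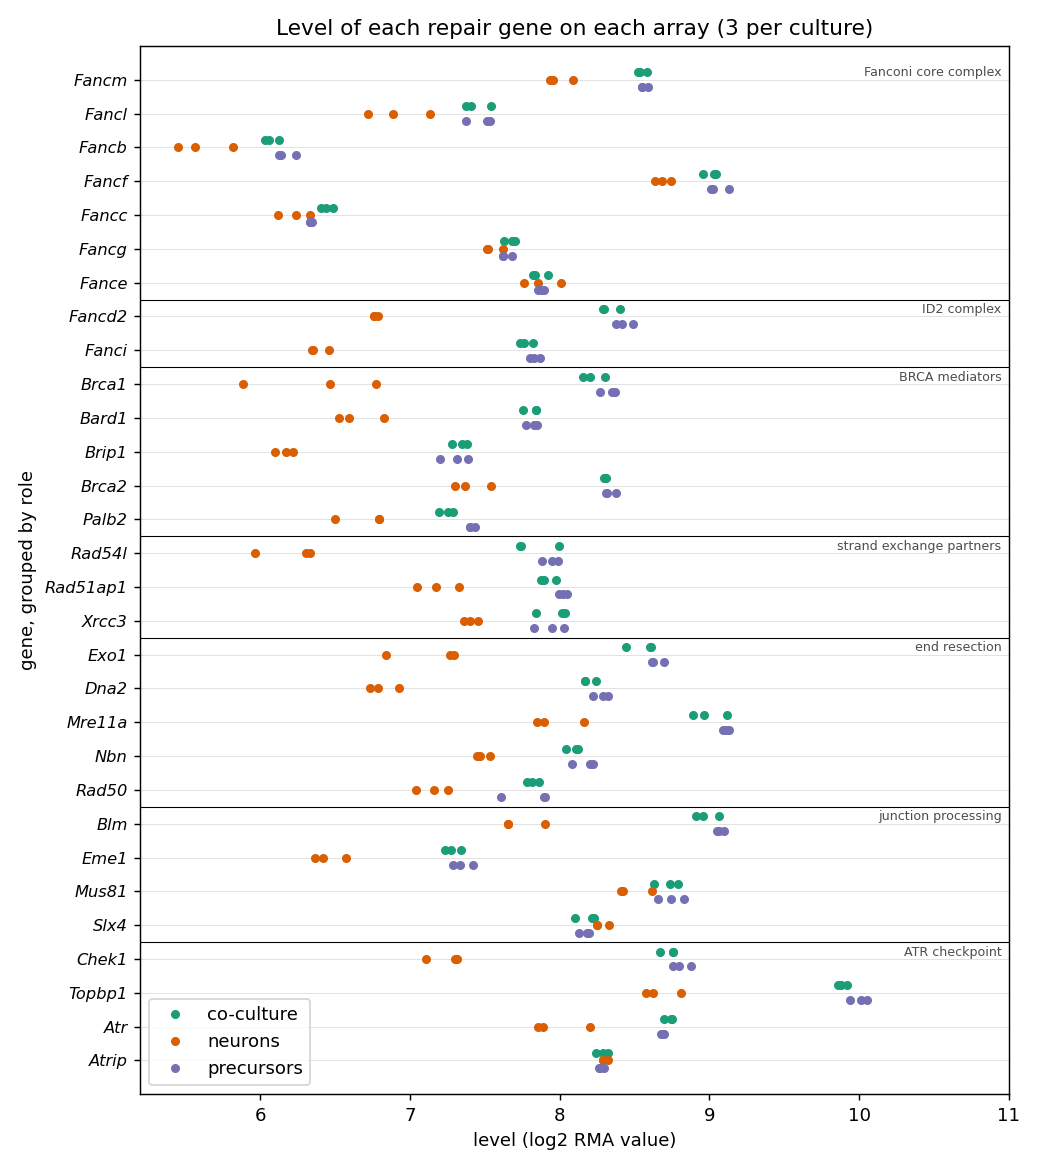
Log2 RMA level of the measured members in each of the 9 arrays, grouped by role, with 1 point per array coloured by culture (co-culture, neurons, precursors). For Brca1 the neuron points lie between 5.89 and 6.77, below all precursor points at 8.27 to 8.37.

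Among the BRCA mediators, which act on resected ends, all 5 measured members were lower in neurons, with a median difference of -1.14 on the log2 scale. Brca1, the ubiquitin ligase and scaffold that promotes end resection, had 5.89, 6.47 and 6.77 in neuron arrays, against 8.27, 8.35 and 8.37 in precursor arrays. The neuron arrays were spread widely but all lay below the precursors. The Brca1 difference was -1.95 (SE 0.18), or 3.87-fold lower, with a limma adjusted p of 1.22e-05, the widest difference among the members. Bard1, its partner in the ligase, had 6.53, 6.60 and 6.83 in neurons and 7.83, 7.85 and 7.78 in precursors, 2.24-fold lower (adjusted p = 1.21e-06 by limma). Brip1, the FANCJ helicase that binds BRCA1, had 6.18, 6.22 and 6.10 in neurons and 7.31, 7.20 and 7.39 in precursors. It was 2.20-fold lower in neurons. Brca2, a mediator that binds at resected ends, had 7.30, 7.54 and 7.37 in neurons and 8.31, 8.38 and 8.32 in precursors, a difference of -0.93 (SE 0.063). Palb2, the bridge between BRCA1 and BRCA2, had 6.79, 6.50 and 6.80 in neurons against 7.40, 7.40 and 7.43 in precursors, and its fold of 1.64 was the smallest of these mediators.

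Both genes of the ID2 complex, the pair of FANCD2 and FANCI that the core complex targets, were lower in neurons. Fancd2 had 6.76, 6.79 and 6.76 in neuron arrays, against 8.42, 8.38 and 8.49 in precursor arrays. No array came near the other group, and the neuron spread (SD 0.017) was the smallest of any member in neurons. The difference was -1.66 (SE 0.053), or 3.16-fold lower, with an adjusted p of 1.24e-08 by limma. Fanci had 6.36, 6.46 and 6.35 in neurons and 7.87, 7.80 and 7.83 in precursors, 2.73-fold lower. The groups were again far apart.

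The Fanconi core members differed less, and 4 of the 7 measured were lower in neurons, with a median of -0.37. Fancm, the translocase that anchors the core complex on DNA, had 7.95, 8.09 and 7.93 in neurons against 8.55, 8.55 and 8.59 in precursors, a difference of -0.57 (SE 0.054). Fancl, the subunit that carries the ligase activity, had 6.89, 7.13 and 6.72 in neurons and 7.54, 7.37 and 7.51 in precursors, 1.47-fold lower. Fancf, an adaptor of the complex, had 8.63, 8.68 and 8.74 in neurons and 9.01, 9.13 and 9.03 in precursors, 1.29-fold lower. In these 3 genes the groups did not overlap. Fancb, whose product forms a module with FANCL, was also called, with 5.45, 5.82 and 5.56 in neurons against 6.12, 6.24 and 6.14 in precursors, below the array median in every array. The core members not called were Fancc, Fance and Fancg. Fance, the subunit that contacts FANCD2, had 7.86, 8.01 and 7.76 in neurons and 7.85, 7.88 and 7.89 in precursors, so that the neuron arrays lay on both sides of the precursors. Its difference of 0.0041 had a 95% interval of -0.15 to 0.15. Fancg had 7.51, 7.52 and 7.62 in neurons against 7.68, 7.62 and 7.62 in precursors (interval -0.20 to 0.026), and the interval of Fancc was -0.24 to 0.029. These 3 intervals leave out any fold as large as that of Fancm, but Fancc, like Fancb, lay below the array median in every array.

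The 3 measured partners of strand exchange were all lower in neurons, with a median of -0.84. Rad54l, a motor protein of strand invasion, had 6.31, 5.96 and 6.33 in neuron arrays, against 7.95, 7.99 and 7.89 in precursor arrays. The difference was -1.74 (SE 0.11), or 3.34-fold lower, and it followed that of Brca1 in size. Rad51ap1, a DNA-binding protein of strand exchange, had 7.17, 7.05 and 7.32 in neurons and 8.0, 8.02 and 8.05 in precursors, 1.79-fold lower. Xrcc3, which is needed for homologous recombination, had 7.36, 7.45 and 7.40 in neurons and 7.95, 8.03 and 7.83 in precursors, 1.44-fold lower. No array of either group overlapped the other in these genes.

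All 5 measured genes of end resection were lower in neurons, with a median of -1.14. Exo1, a 5′ to 3′ exonuclease, had 7.29, 6.84 and 7.27 in neurons and 8.62, 8.62 and 8.70 in precursors, 2.85-fold lower (adjusted p = 2.83e-06 by limma). Dna2, the nuclease and helicase of long-range resection, had 6.73, 6.79 and 6.93 in neurons and 8.33, 8.23 and 8.29 in precursors, 2.76-fold lower. Both stood apart by more than 1 log2 unit in every pair of arrays. The MRE11 complex, which senses the break and begins the cut, was split in size. Mre11a, its nuclease, had 8.17, 7.85 and 7.89 in neurons and 9.13, 9.09 and 9.11 in precursors, 2.21-fold lower. Nbn, the subunit that recruits the ATM kinase, had 7.45, 7.53 and 7.47 in neurons and 8.23, 8.08 and 8.20 in precursors, 1.61-fold lower. Rad50, its ATPase, had 7.16, 7.26 and 7.04 in neurons and 7.90, 7.89 and 7.61 in precursors, 1.57-fold lower.

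Of the 4 genes of junction processing, 3 were lower in neurons, with a median of -0.58. Blm, the helicase that dissolves joined DNA molecules, had 7.66, 7.90 and 7.66 in neurons and 9.07, 9.10 and 9.05 in precursors, 2.52-fold lower. Eme1, the partner of the MUS81 nuclease, had 6.36, 6.42 and 6.57 in neurons and 7.29, 7.34 and 7.42 in precursors, 1.86-fold lower. Mus81 itself had 8.41, 8.62 and 8.42 in neurons against 8.66, 8.74 and 8.83 in precursors, so the highest neuron array lay just under the lowest precursor array. Its difference of -0.26 (SE 0.075) had an adjusted p of 0.0198 by limma, and that call was lost when neuron replicate 1 or 3 or precursor replicate 2 or 3 was left out (adjusted p of 0.0731, 0.0680, 0.0523 and 0.0787), and with cyclic loess. Slx4, the scaffold that holds such nucleases, ran the other way without passing. Its neuron arrays had 8.25, 8.33 and 8.25, against 8.20, 8.13 and 8.19 in precursors, and the difference was 0.11 (95% interval -0.015 to 0.23, adjusted p = 0.168 by limma). The groups did not overlap, as in 21.4% of all genes in that direction.

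Among the 4 genes of the ATR checkpoint, the kinase pathway that reads single-stranded DNA at stalled forks, 3 were lower in neurons. Chek1, the effector kinase, had 7.32, 7.11 and 7.30 in neuron arrays, against 8.79, 8.76 and 8.88 in precursor arrays, a difference of -1.57 (SE 0.067), or 2.96-fold lower. Topbp1, the activator of ATR, had 8.57, 8.81 and 8.62 in neurons and 10.01, 9.94 and 10.05 in precursors, 2.52-fold lower. Atr itself had 7.89, 8.20 and 7.86 in neurons and 8.69, 8.69 and 8.68 in precursors, 1.63-fold lower. All 3 were separated between the groups. For Atr a second, dimmer probe set gave 5.94 ± 0.13 in neurons and 5.85 ± 0.036 in precursors (SD, n = 3 each), so the probe sets of this gene disagreed. Atrip, the subunit that brings ATR to the DNA, had 8.29, 8.32 and 8.29 in neurons and 8.27, 8.26 and 8.30 in precursors, with an interval of -0.075 to 0.13 around a difference of 0.027. The levels of the kinase gene and of its partner's gene thus differed in whether they were called; a test of one difference against the other was not run.

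**Figure D2:**
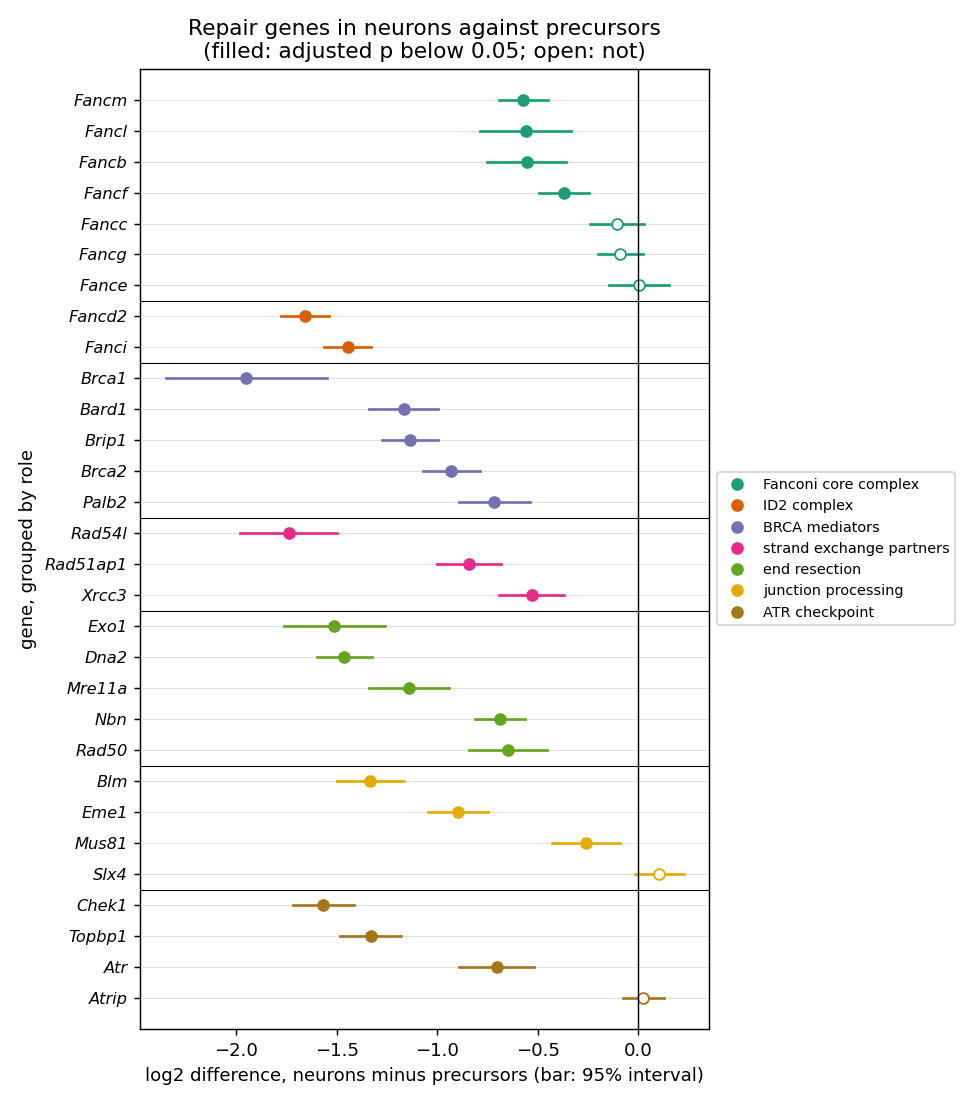
Log2 difference of neurons minus precursors for each of the 30 measured members, grouped by role, with 95% intervals from limma and filled points for an adjusted p below 0.05. Brca1 lies lowest at -1.95, and Fance, Atrip and Slx4 lie at or above 0.

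The spread among neuron arrays was larger than among the other groups. The median SD of the members was 0.12 in neurons, 0.051 in co-cultures and 0.047 in precursors, against 0.095, 0.065 and 0.073 over all genes. All 8 proliferation markers had their highest neuron level in neuron replicate 2, where their mean was 8.09, against 7.75 and 7.77 in the other neuron arrays. Over all 30 members, 17 were highest in that array and 7 lowest. Of the 12 members at least 2-fold lower in neurons, 5 were highest in neuron replicate 2 and 4 were lowest there, namely Rad54l, Mre11a, Exo1 and Chek1.

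Other genes of DNA repair were counted on lists kept apart from the members. Of 46 other measured homologous recombination and Fanconi genes, 30 were lower in neurons and 2 higher, with a median of -0.31. The furthest were Uhrf1, a reader of newly copied DNA, at -2.03, Usp1, which removes ubiquitin from FANCD2, at -1.84, Fignl1 at -1.58 and the ligase gene Rfwd3 at -1.48. The genes called higher, picked out after their values were seen, were Rev3l, the catalytic subunit of a translesion polymerase, at 0.45, and Faap100, a core complex subunit, at 0.20. The Faap100 call was lost without neuron replicate 2 or 3 or precursor replicate 2 (adjusted p of 0.0534, 0.0520 and 0.0753 by limma). All 16 genes of other damage signalling were lower, with a median of -1.05. They were led by Wee1, the kinase that holds back mitosis, at -2.09, the fork protein gene Tipin at -1.81, the phosphatase gene Cdc25a at -1.55 and the clamp gene Hus1 at -1.46.

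Other repair pathways were counted in the same way. In end joining, 4 of 12 genes were lower and 0 higher, with a median of -0.14, and these were Rif1 at -1.49, Xrcc5 at -1.31, Prkdc at -0.64 and Xrcc6 at -0.28. In base and nucleotide excision repair, 13 of 21 were lower and 2 higher, with a median of -0.28; Neil3, a DNA glycosylase, was furthest at -1.02. In mismatch repair, 3 of 5 were lower, among them Msh6 at -0.77, and Mlh3 was called higher at 0.27. The Mlh3 call was lost without neuron replicate 2 or precursor replicate 1 or 2 (adjusted p of 0.0591, 0.0836 and 0.0783 by limma), and with only the compared groups (0.0599). Among 11 target genes of p53, 3 were lower and 2 higher, with Sesn2 at -1.22 and Cdkn1a, an inhibitor of cyclin-dependent kinases, at 0.38; without neuron replicate 2, 5 were lower. Lower calls made up 65.2% of the other homologous recombination and Fanconi genes, 61.9% in base and nucleotide excision repair and 60.0% in mismatch repair. They made up 33.3% in end joining and 27.3% among p53 targets. The shares were 83.3% of the members, 100% of other damage signalling and 20.2% of all genes. A difference between lists was not tested.

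**Figure D3:**
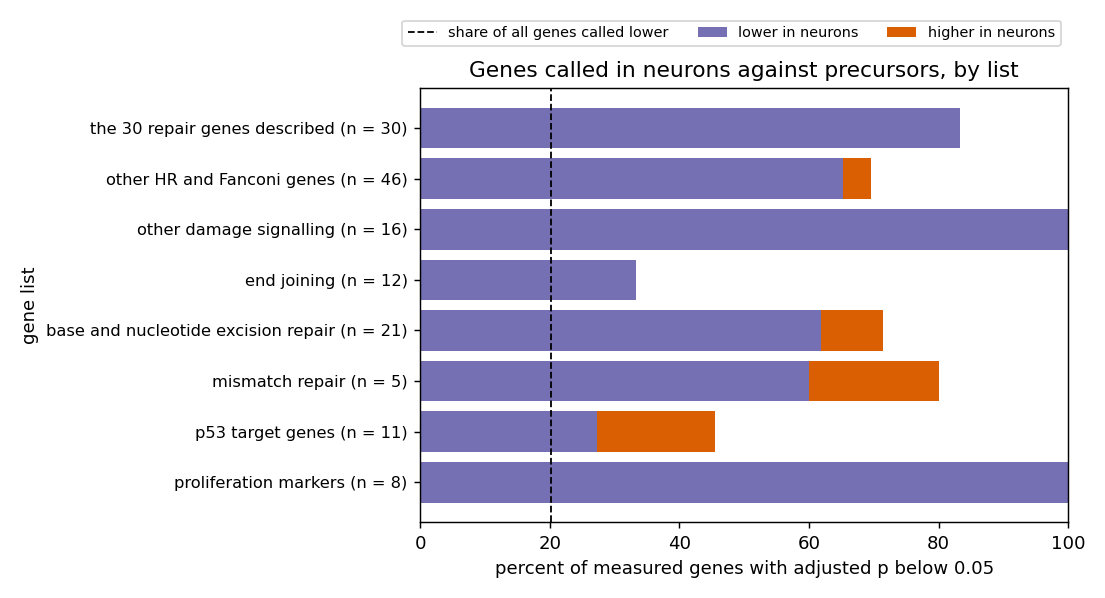
Percent of the measured genes of each list with an adjusted p below 0.05 in neurons against precursors, split into genes lower and higher in neurons, with the share of all genes called lower (20.2%) as a dashed line. The bar of lower genes stands for 25 of the 30 repair genes described, 16 of 16 genes of other damage signalling and 4 of 12 genes of end joining.

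The comparison of co-cultures with precursors sets bulk RNA of the mixed culture against that of precursors kept alone. It cannot tell a change within the precursors from the share of RNA that came from the neurons. No measured member passed in either direction by limma, against 3.53% of all genes called higher and 0.18% called lower, and 0 members passed at an unadjusted p of 0.05, against 9.22% of all genes higher and 3.65% lower. The member differences ran from -0.17 to 0.11 on the log2 scale, at most 1.12-fold. Every 95% interval lay within 1.5-fold of no difference, and the furthest bounds, both of Brca1, were -0.51 and 0.29. The model pooled the spread of all 3 groups, so these p-values and intervals also carried that of the neuron arrays. The SD of Brca1 was 0.45 in neurons, against 0.077 in co-cultures and 0.054 in precursors. No member was called with only the compared groups either. The median member differed by -0.054, against -0.0042 over all genes, with 22 members below 0 and 8 above, while 51.8% of all genes were below 0.

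Palb2 came nearest to the threshold, with 7.25, 7.29 and 7.19 in co-culture arrays, against 7.40, 7.40 and 7.43 in precursor arrays. Its co-culture arrays were all lower, and its difference was -0.17 (adjusted p = 0.420 by limma). Brca2, Rad51ap1, Exo1, Topbp1 and Chek1 also had every co-culture array below every precursor array, which makes 6 members, against 6.77% of all genes. For Topbp1 the values were 9.88, 9.92 and 9.86 in co-cultures against 10.01, 9.94 and 10.05 in precursors, a small gap. Fancc was the only member with the opposite separation, at 6.49, 6.44 and 6.41 in co-cultures and 6.33, 6.33 and 6.34 in precursors, a pattern found in 12.3% of all genes. Brca1 had 8.20, 8.31 and 8.16 in co-cultures against 8.27, 8.35 and 8.37 in precursors, and the groups overlapped. Fancd2 had 8.29, 8.40 and 8.29 in co-cultures against 8.42, 8.38 and 8.49 in precursors, overlapping too. None of the other repair lists had a called gene in this comparison, while 4 of 8 neuron markers were called higher, Mapt by 0.57. Mki67 differed by -0.11 (adjusted p = 0.797 by limma).

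**Figure D4:**
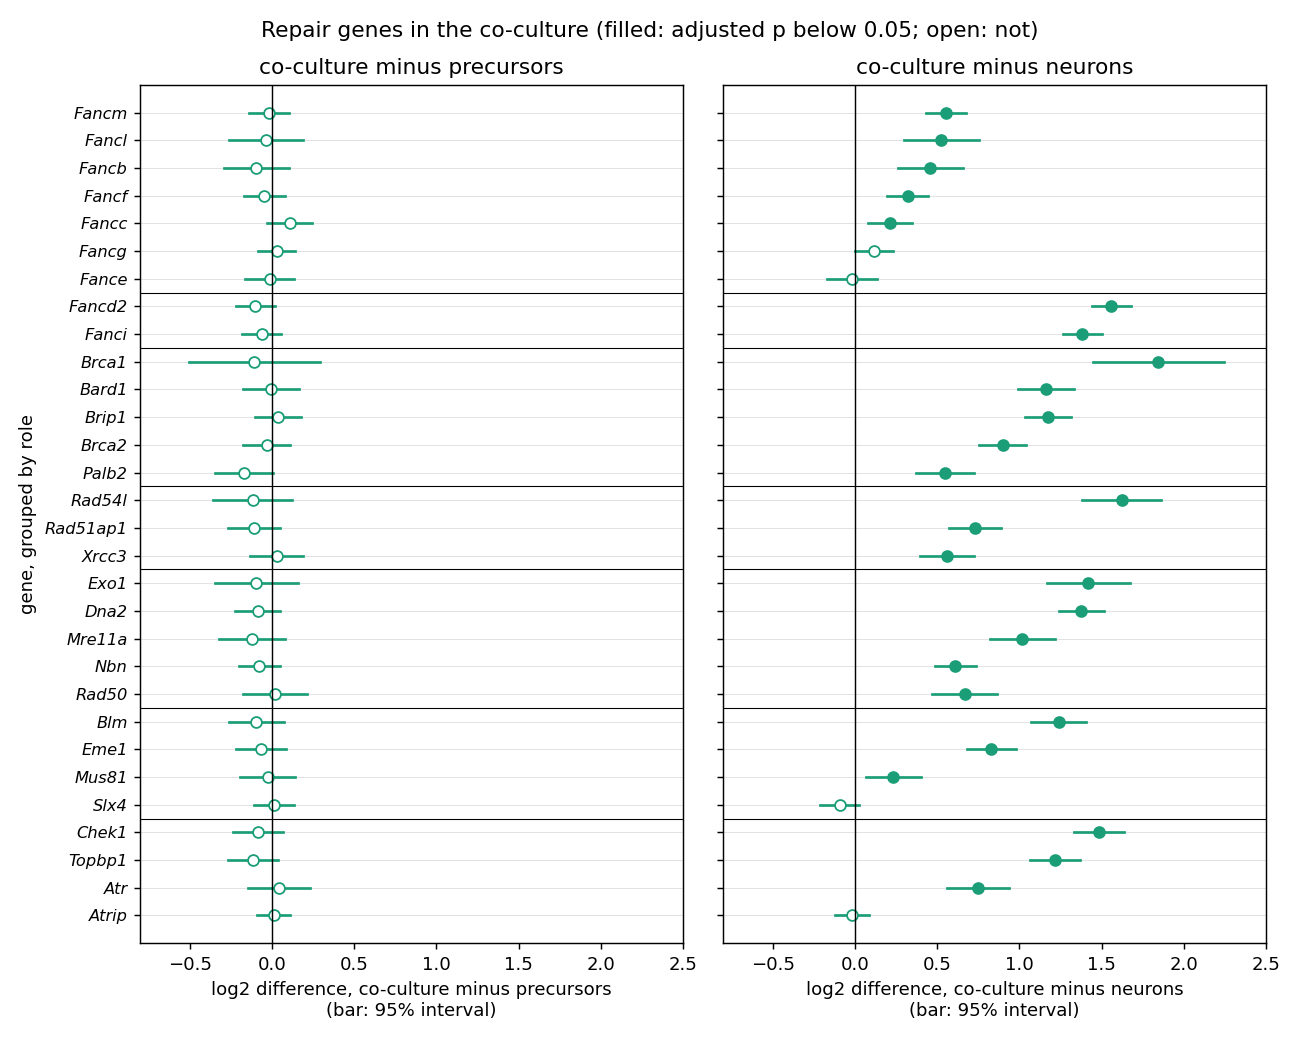
Log2 difference of co-cultures minus precursors and of co-cultures minus neurons for each measured member, with 95% intervals from limma and filled points for an adjusted p below 0.05. Against precursors all members lie between -0.17 and 0.11, and against neurons Brca1 reaches 1.84.

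Set against neurons, 26 of 30 members were higher in co-cultures, 0 were lower and 4 did not pass, where 20.3% of all genes were called higher and 16.7% lower by limma. The 3 comparisons share their arrays, so these calls are not independent of those above. Co-cultures also hold the added precursors, so a change within the neurons cannot be told apart from the precursors' share of the RNA. Brca1 was 3.59-fold higher (log2 difference 1.84, SE 0.18, adjusted p = 2.56e-05), Rad54l 3.08-fold and Fancd2 2.95-fold. Chek1 was 2.80-fold, Exo1 2.67-fold, Fanci 2.61-fold and Dna2 2.60-fold higher. In total 12 members were at least 2-fold higher, against 2.53% of all genes, and 27 had every co-culture array above every neuron array, against 23.7% of all genes.

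The members not called were Fance, Fancg, Slx4 and Atrip. Fancg had 7.63, 7.70 and 7.68 in co-cultures against 7.51, 7.52 and 7.62 in neurons, a difference of 0.12 (adjusted p = 0.103 by limma), with all co-culture arrays above the neuron arrays. Fancc, which binds FANCE in the core complex, was called here, with 6.49, 6.44 and 6.41 in co-cultures against 6.33, 6.12 and 6.24 in neurons. Its difference of 0.21 had an adjusted p of 0.0185, and 0.0717 without co-culture replicate 1. Mus81 had 8.63, 8.79 and 8.73 in co-cultures against 8.41, 8.62 and 8.42 in neurons (0.23, adjusted p = 0.0341), and the call was lost without neuron replicate 1 or 3 or co-culture replicate 2 or 3 (0.112, 0.105, 0.119 and 0.0855). It was lost with cyclic loess and with only the compared groups as well.

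Each co-culture level was also placed on the linear scale between the precursor mean, taken as 0%, and the neuron mean, taken as 100%, as a description with no test. Over the 19 members at least 1.5-fold lower in neurons the median place was 9.66%, with quartiles of 5.72% and 11.9%. The medians of the 3 co-culture arrays were 4.33%, 9.49% and 11.4% (SD 3.65). Atr lay lowest at -8.07%, outside the range of the separate cultures, and Palb2 highest at 28.2%. Over all 1624 genes at least 1.5-fold lower in neurons the median was 9.73%, with quartiles of 4.14% and 15.0%. The members thus lay where other genes low in neurons lay. Leaving out 1 array at a time moved the members' median between 7.86% and 10.8%.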

How the data were processed

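The authors deposited 1 log2 value per probe set for each of 9 mouse gene arrays. Per the submitters' processing notes the oligo package and RMA were used; versions and a genome build are not named. Precision is limited by the number of arrays, since arrays have no read depth. Array medians lay between 6.75 and 6.79.

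Of 41345 probe sets, 23521 had 1 symbol in the platform table, 1814 several and 16010 none listed; 23328 were found by gene number in the GRCm38.p6 gene table, where 0 symbols differed. Each of 22180 genes was represented by its probe set of highest mean; 1082 genes had more than 1. No filter on low values was set, so every measured member could be counted. In total 28 of 30 lay above the array median in at least 3 arrays. Fancb, Fancc, Fanci, Brca1, Brip1, Rad54l and Eme1 lay below it in all neuron arrays.

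A limma model (version 3.58.1, R 4.3.3) of the 3 groups over all 9 arrays gave two-sided moderated tests and 95% intervals, with Benjamini-Hochberg adjustment over all genes and a threshold of 0.05. Scripts were tested on simulated data with the same spread in all 3 groups. With 200 of 22180 genes changed 1.5-fold or 2-fold, 92.5% to 100% were recovered and 4.10% to 9.91% of calls were false. Alternatives were 2 filters, cyclic loess, centred arrays, array weights, an intensity trend, only the compared groups, a replicate block, the mean over probe sets, and leaving out each array. All members are named; of each other list, up to 4 genes with the largest difference past the threshold. The members and lists were chosen with earlier results of these data known.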

Additional observations from a re-analysis of the deposited data

How the results depend on the processing

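Under the 18 alternatives, between 24 and 25 members were lower in neurons than in precursors, 0 passed between co-cultures and precursors, and between 24 and 26 were higher in co-cultures than in neurons. With cyclic loess 1 member, Slx4, was called higher in neurons than in precursors (0.16, adjusted p = 0.0324 by limma) and 1, again Slx4, lower in co-cultures than in neurons (-0.15, adjusted p = 0.0478). With cyclic loess Mus81 lost its call in both comparisons (0.0550 and 0.104), and with only the compared groups that of co-cultures against neurons (0.0519). Counts over all genes moved by over 1.5 times only between co-cultures and precursors; elsewhere, leaving out an array, they ran at the widest over 3046 to 4284 (genes lower in co-cultures than in neurons, 3711 with all arrays). Between co-cultures and precursors, of 40 genes called lower, 26 or 24 were left by the filters (above the array median in 3 arrays, or mean above it), 121 with array weights, and 11 to 47 when an array was left out. The 783 called higher became 466 to 842 when an array was left out, with 466 and 487 without co-culture replicate 2 or 1; without precursor replicate 2, without co-culture replicate 1 or without co-culture replicate 2, 11, 11 and 17 were called lower. The cause was not tested.

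Differences near 0 turned sign, none of them called. With array weights, Fance was at -0.027 in neurons minus precursors and 0.0052 in co-cultures minus neurons, and Slx4 at -0.0023 and Bard1 at 0.0056 in co-cultures minus precursors; Bard1 was at 0.0046 with cyclic loess and 0.0064 with centred arrays. Leaving out an array, Fance ran over -0.063 to 0.061 in neurons minus precursors, -0.045 to 0.0045 in co-cultures minus precursors and -0.074 to 0.049 in co-cultures minus neurons, and Atrip over -0.035 to 0.0047 in the last. In co-cultures minus precursors the others were Bard1 (-0.024 to 0.026), Brip1 (-0.015 to 0.079), Slx4 (-0.011 to 0.053), Mus81 (-0.069 to 0.017), Rad50 (-0.079 to 0.069), Xrcc3 (-0.024 to 0.093) and Atrip (-0.0079 to 0.032).

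With the replicate number as a block, 25 members were lower in neurons, 0 passed between co-cultures and precursors, and 26 were higher in co-cultures than in neurons; neurons minus precursors had 4001 calls above 0 and 4529 below 0. The labels do not say whether arrays of the same number share a source, and the values do not settle it. Same-numbered deviations correlated at 0.0107, 0.160 and -0.108 between neurons and precursors, where other pairs ran from -0.187 to 0.216. Between co-cultures and precursors they correlated at 0.238, 0.168 and 0.0338, against -0.207 to 0.0535 for other pairs. For co-cultures and neurons the values were -0.0246, 0.248 and 0.171, against -0.263 to 0.158.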
